A study of Mus musculus with 18 samples.

Results

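Aqp4, Aqp1, Kcnj10 and Kcnj2 encode 2 water channels and 2 potassium channels of the retina, and they are studied as targets of the drugs given for macular oedema. They are followed here by the array's probe sets whose annotation names 1 of these symbols and no other gene. The rule gave 4 of 18193 genes named alone on a probe set, by 6 of 45101 probe sets, which were 3 for Aqp4 (1425382_a_at, 1434449_at and 1447745_at, called probe sets A, B and C below), 1 for Aqp1 (1416203_at), 1 for Kcnj10 (1419601_at) and 1 for Kcnj2 (1450503_at). The rule used no measured value, and all 6 entered every test.

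The retinas came from male C57BL6/J mice that were 2 months old and had received 1 intravitreal injection at day 0. The injection held dexamethasone (DEX), triamcinolone (TAA), both of them synthetic glucocorticoids, or BSS, the control, and the labels used here give no dose. The 6 groups were DEX day 30, TAA day 30, BSS day 30, DEX day 7, TAA day 7 and BSS day 7, each with 3 biological replicates on 3 Affymetrix arrays, 18 arrays in all. The mice of all groups had no disease model in the labels, and no label says whether the retinas of a group came from separate mice or were pooled, so p-values measure only the spread between these samples, which may be technical.

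Aquaporins are pores that let water cross a membrane along an osmotic gradient. In the retina, Müller glia carry aquaporin-4 and the inward rectifier Kir4.1, encoded by Kcnj10, at the endfeet that border the vitreous and the blood vessels, held there by the dystrophin complex. Potassium released by active neurons enters these glia and leaves at the endfeet, and water moves with it. Retinal swelling in macular oedema is treated by intravitreal injection of glucocorticoids.

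Promoters are shown because glucocorticoids act through a receptor that binds DNA, and its sites can lie close to a gene's start. The windows run from 250 bases before to 50 bases after the RefSeq gene start on build GRCm38.p6 and are 5′ to 3′ on the gene's strand. Capitals mark the half-site TGTTCT of the glucocorticoid receptor, searched on both strands. A RefSeq window was found for 3 of the 4 genes and not for Aqp4.
Aqp1, chr6:55336049-55336348, plus strand: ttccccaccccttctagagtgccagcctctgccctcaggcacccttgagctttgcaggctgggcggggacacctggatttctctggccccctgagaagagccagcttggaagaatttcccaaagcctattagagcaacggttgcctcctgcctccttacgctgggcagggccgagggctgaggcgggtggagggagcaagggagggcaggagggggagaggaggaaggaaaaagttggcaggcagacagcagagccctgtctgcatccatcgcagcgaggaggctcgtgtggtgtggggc
Kcnj10, chr1:172340960-172341259, plus strand: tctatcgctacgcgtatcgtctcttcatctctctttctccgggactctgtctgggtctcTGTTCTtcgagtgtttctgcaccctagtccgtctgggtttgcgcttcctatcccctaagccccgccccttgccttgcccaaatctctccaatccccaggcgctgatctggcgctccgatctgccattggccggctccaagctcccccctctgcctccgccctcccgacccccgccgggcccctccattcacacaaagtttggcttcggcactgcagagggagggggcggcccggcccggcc
Kcnj2, chr11:111065914-111066213, plus strand: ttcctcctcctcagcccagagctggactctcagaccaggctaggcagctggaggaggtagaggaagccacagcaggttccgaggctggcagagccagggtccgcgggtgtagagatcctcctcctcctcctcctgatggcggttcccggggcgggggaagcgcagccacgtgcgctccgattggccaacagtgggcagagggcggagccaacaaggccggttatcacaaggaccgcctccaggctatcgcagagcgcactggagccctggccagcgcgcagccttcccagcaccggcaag

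The Kcnj10 window held 1 half-site, whose first base lay 191 bases before the start, and the Aqp1 and Kcnj2 windows held 0. The half-site stood in 6233 of 32851 mouse promoter windows of this length, or 19%. The full element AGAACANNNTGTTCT stood in 3 of 32851 (0.00913%) and in 0 of these 3. All 3 windows were rich in G and C, with 62.7% in Aqp1, 63.7% in Kcnj10 and 66.7% in Kcnj2, against a median of 52.7% over all windows. These matches describe letters and say nothing of binding.

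Each deposited value is a log2 value relative to the median of its probe set over the 18 arrays, so 0 is the middle array and no level of a gene is known. Levels of different genes, and the presence of the defining markers of retinal cells, could therefore not be checked, and precision is set by how few arrays there are. Arrays differed in how far they strayed from the middle. Over all probe sets the standard deviation of an array ranged from 0.15 to 0.35, and the widest were TAA day 30 replicate 2 (0.35), TAA day 7 replicate 2 (0.34), DEX day 30 replicate 2 (0.30) and DEX day 30 replicate 1 (0.27). On TAA day 30 replicate 2 the Actb 3′ probe set minus the 5′ one, which can vary with RNA integrity, was -0.46, against -0.17 to 0.14 on the other 17. For Gapdh the same array gave -0.086, inside the range of the other 17 (-0.16 to 0.28). Being centred, these values do not show whether its RNA was degraded. Several values below rest on the widest arrays.

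Aqp4, the main water channel of Müller glia, was highest in different groups by different probe sets. By probe set B it was 0.73, 0.93 and 0.26 in DEX day 30 retinas, 0.076, -0.30 and 0.042 in TAA day 30 retinas and 0.046, 0.039 and 0.060 in BSS day 30 retinas. All 3 DEX day 30 arrays lay above every other array of that day. At day 7 the same probe set gave -0.20, -0.046 and -0.32 after DEX, -0.54, 1.06 and -0.039 after TAA and -0.33, -0.26 and -0.13 after BSS. TAA day 7 replicate 2 was the highest and TAA day 7 replicate 1 the lowest of all 18 arrays, so the TAA retinas spanned the whole range.

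Aqp4 probe set A gave 0.11, 0.0027 and -0.21 in DEX day 30 retinas, -0.13, 0.37 and 0.11 in TAA day 30 retinas and 0.33, 0.17 and 0.29 in BSS day 30 retinas. Here the BSS retinas lay above all 3 DEX retinas of that day. At day 7 it gave 0.085, -0.14 and -0.088 after DEX, -0.50, 0.51 and -0.0027 after TAA and -0.21, -0.47 and -0.14 after BSS. The BSS day 30 and BSS day 7 arrays did not overlap, and TAA day 7 again held both the highest and the lowest array.

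Aqp4 probe set C gave -0.048, 0.063 and 0.024 in DEX day 30 retinas, 0.13, 1.18 and 0.050 in TAA day 30 retinas and 0.055, 0.040 and 0.25 in BSS day 30 retinas. One array, TAA day 30 replicate 2, stood far above the rest. At day 7 it gave -0.070, -0.094 and -0.13 after DEX, -0.15, 0.29 and -0.053 after TAA and -0.024, -0.17 and -0.070 after BSS. Without that 1 array the probe set ran only from -0.17 to 0.29.

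The disagreement within Aqp4 was measured as probe set B minus probe set A on each array, which removes what both share. It was 0.62, 0.92 and 0.48 in DEX day 30 retinas (mean 0.67 ± 0.23, SD, n = 3), 0.21, -0.67 and -0.063 in TAA day 30 retinas (-0.17 ± 0.45) and -0.28, -0.13 and -0.23 in BSS day 30 retinas (-0.22 ± 0.075). At day 7 it was -0.28, 0.098 and -0.23 after DEX, -0.041, 0.55 and -0.036 after TAA and -0.12, 0.21 and 0.0053 after BSS. The gap was above 0 on all 3 DEX day 30 arrays and below 0 on all 3 BSS day 30 arrays, while each of the other groups held both signs. TAA day 7 replicate 2 lay above DEX day 30 replicate 3. The gap was chosen after the values were seen and has no test. Which probe set follows the transcript better cannot be read from centred values.

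Aqp1, a water channel known from red blood cells and vessel walls and, in rat retina, from photoreceptors and some amacrine cells, gave 1.23, 1.07 and -0.12 in DEX day 30 retinas, 0.20, 0.26 and 0.033 in TAA day 30 retinas and 0.50, 0.090 and -0.067 in BSS day 30 retinas. DEX day 30 replicates 1 and 2 were the highest of all arrays and replicate 3 lay below all other arrays of that day. At day 7 Aqp1 gave -0.033, -0.29 and -0.14 after DEX, -0.21, 0.89 and -0.052 after TAA and 0.041, -0.074 and -0.053 after BSS. TAA day 7 replicate 2 stood alone again.

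Kcnj10, whose Kir4.1 channel sets the resting potential of Müller glia and carries their potassium current, gave 0.27, 0.15 and -0.21 in DEX day 30 retinas, 0.042, -0.46 and -0.16 in TAA day 30 retinas and -0.15, -0.0055 and -0.26 in BSS day 30 retinas. The 3 groups overlapped. At day 7 it gave 0.27, 0.23 and 0.062 after DEX, -0.20, 0.57 and 0.0055 after TAA and -0.019, 0.18 and -0.012 after BSS. Its highest array was TAA day 7 replicate 2 and its lowest TAA day 30 replicate 2, the 2 widest arrays of the study.

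Kcnj2, which encodes the strong inward rectifier Kir2.1, varied least. It gave 0.17, 0.030 and 0.12 in DEX day 30 retinas, -0.22, -0.044 and 0.21 in TAA day 30 retinas and -0.013, 0.036 and 0.064 in BSS day 30 retinas. At day 7 it gave -0.042, 0.054 and -0.10 after DEX, -0.072, 0.013 and -0.017 after TAA and 0.015, -0.074 and -0.45 after BSS. BSS day 7 replicate 3 was the lowest, and no 2 groups of any comparison were apart. The same held for Aqp1 and Kcnj10, so among the 4 genes groups without overlap were found in Aqp4 alone, which has 3 of the 6 probe sets. Depending on the comparison, 9.91% to 24% of all probe sets had groups apart in either direction.

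**Figure D1:**
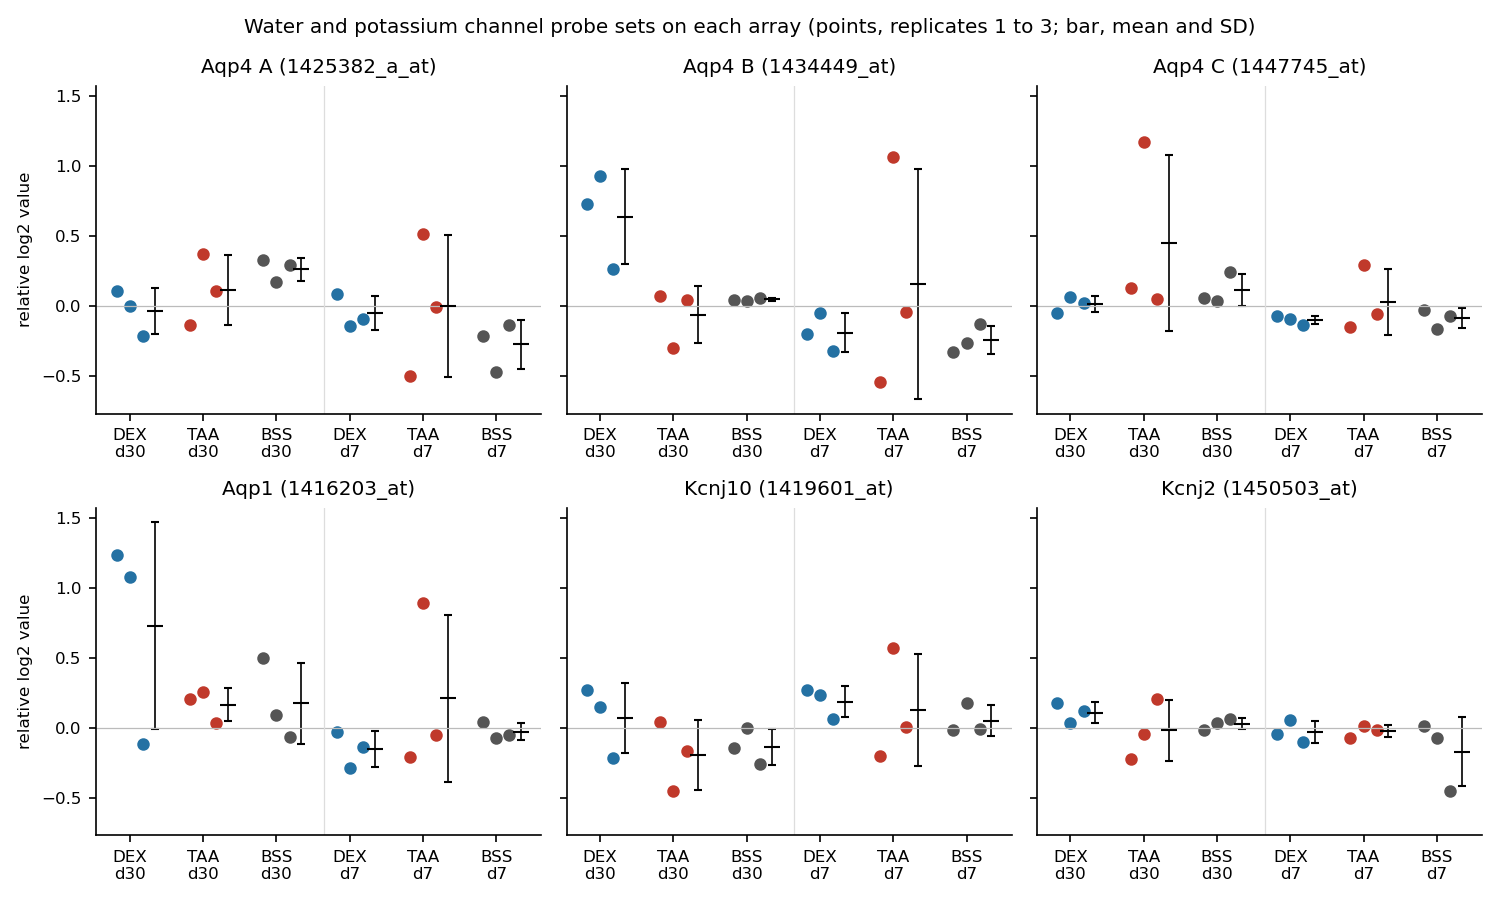
Relative log2 value of the 6 probe sets (vertical axis) on each array, by group, with 1 point per array and, beside the points, the group mean and SD. DEX day 30 replicates 1 and 2 reach 1.23 and 1.07 in Aqp1 and 0.73 and 0.93 in Aqp4 probe set B, and TAA day 7 replicate 2 is high in Aqp4, Aqp1 and Kcnj10.

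The spread within groups set the scale for every comparison. Aqp1 had a residual standard deviation of 0.41 and lay at percentile 97.9 of all probe sets. Aqp4 had 0.38 by probe set B (percentile 96.9), 0.28 by probe set C (90) and 0.26 by probe set A (86.5). Kcnj10 had 0.23 (percentile 81) and Kcnj2 0.14 (33). So 5 of the 6 probe sets were noisier within groups than most of the array, whose median was 0.17.

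Differences between groups were tested with limma over all 45037 probe sets that are not array controls, with p-values adjusted by the Benjamini-Hochberg method over that table and a threshold of 0.05. Over 11 comparisons the 6 probe sets gave 66 differences, and 0 passed. With array quality weights, an alternative that lets arrays far from their group count less, 2 passed in DEX minus BSS at day 30, 2 in DEX minus TAA at day 30, 2 in DEX day 30 minus day 7, 1 in BSS day 30 minus day 7 and 1 for the change of the DEX effect between the days. The weights called 4823, 3959, 7674, 511 and 2773 of all 45037 probe sets in these comparisons, in the same order. In the fit without weights, unadjusted p was under 0.05 in 6 of the 66 differences. Among all probe sets that share ran from 3.38% to 18.3%, depending on the comparison. Estimates below are log2 differences with their standard errors, and n = 3 in every group. Comparisons that use the same group share its arrays, so they are not separate evidence. In whole retina, a change in RNA per cell and a change in the number of cells of a type cannot be told apart.

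At day 30, DEX retinas set against BSS retinas had higher Aqp1 and higher Aqp4 by probe set B, and lower Aqp4 by probe set A, with no member passing. The array as a whole had 0% of probe sets called here and 11.3% at an unadjusted p under 0.05. Aqp4 probe set B averaged 0.64 ± 0.34 in DEX retinas and 0.048 ± 0.010 in BSS retinas (SD), a difference of 0.59 ± 0.27 (95% interval 0.030 to 1.15, unadjusted p = 0.0400, adjusted p = 0.422). It was the one member of the 6 with an unadjusted p under 0.05. Its groups did not overlap, with DEX higher, as was true of 5.31% of all probe sets.

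Aqp4 probe set A averaged -0.034 ± 0.16 in DEX retinas and 0.26 ± 0.080 in BSS retinas, a difference of -0.30 ± 0.19 (95% interval -0.70 to 0.10, unadjusted p = 0.134, adjusted p = 0.554). Its groups did not overlap either, with DEX lower, as in 8.6% of all probe sets (13.9% were apart in either direction). Averaged over the 3 Aqp4 probe sets, DEX minus BSS was 0.065 ± 0.18 (adjusted p = 0.902 over 18193 genes). For Aqp1 the means were 0.73 ± 0.74 in DEX retinas and 0.17 ± 0.29 in BSS retinas, and the difference was 0.56 ± 0.29 (95% interval -0.051 to 1.16, unadjusted p = 0.0703, adjusted p = 0.471). Without DEX day 30 replicate 3 the Aqp1 difference was 0.98 and passed (adjusted p = 0.0326), and without replicate 1 it was 0.31 (adjusted p = 0.870). Without replicate 3, 2009 probe sets of the whole array passed.

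For the potassium channels no difference between DEX and BSS at day 30 passed. The estimate was 0.21 ± 0.17 for Kcnj10 (95% interval -0.16 to 0.57) and 0.079 ± 0.12 for Kcnj2 (-0.18 to 0.34). Markers of other cells were read on the same arrays. The mean of 19 probe sets of 10 Müller glia markers was -0.056, 0.020 and -0.13 in DEX day 30 retinas and 0.048, -0.11 and 0.065 in BSS day 30 retinas, and of erythrocyte markers (4 of 8 genes measured) -0.13, -0.11 and 0.13 in DEX and 0.060, -0.057 and 0.054 in BSS. Rod photoreceptor markers (8 of 10 genes measured) averaged 0.094, 0.10 and -0.016 in DEX and -0.029, -0.014 and -0.0060 in BSS, and 7 of 8 probe sets were above 0 in DEX minus BSS. DEX day 30 replicates 1 and 2, the retinas of their group with high Aqp1, had the highest rod means of all 18 arrays and the lower erythrocyte means of their group. TAA day 7 replicate 2, where Aqp1 was also high (0.89), had a rod mean of -0.022 and an erythrocyte mean of -0.18. Endothelium markers (10 of 10 genes measured) averaged -0.0047, -0.038 and -0.13 in DEX and 0.086, -0.026 and 0.099 in BSS, with 10 of 14 probe sets below 0. Lens markers (8 of 9 genes measured) averaged -1.72, -0.044 and 0.65 in DEX and 1.73, -0.13 and 2.22 in BSS, with 8 of 8 below 0 (median -1.84). None of these marker probe sets was called, and their part in the result was not tested.

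TAA retinas set against BSS retinas at day 30 showed little in these channels. Aqp4 probe set C averaged 0.45 ± 0.63 in TAA retinas and 0.11 ± 0.11 in BSS retinas, a difference of 0.34 ± 0.20 (95% interval -0.091 to 0.77, unadjusted p = 0.115, adjusted p = 0.789). It rested on 1 array, since without TAA day 30 replicate 2 it was -0.025. The other 5 differences ran from -0.15 to -0.0092, and 0 of 6 members had groups apart, against 12.8% of all probe sets. An unadjusted p under 0.05 was found in 0 members and in 6.74% of all probe sets, and 0% were called.

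DEX retinas set against TAA retinas at day 30 had higher Aqp4 by probe set B, lower Aqp4 by probe set C and higher Aqp1, and none passed. Probe set B averaged 0.64 ± 0.34 in DEX retinas and -0.060 ± 0.21 in TAA retinas. The difference was 0.70 ± 0.27 (95% interval 0.14 to 1.26, unadjusted p = 0.0175, adjusted p = 0.208), and the groups did not overlap, as in 6.29% of all probe sets with DEX higher (14% in either direction). Aqp4 probe set C went the other way, at -0.44 ± 0.20 (95% interval -0.87 to -0.0091, unadjusted p = 0.0458, adjusted p = 0.306), and without TAA day 30 replicate 2 it was -0.075. For Aqp1 the difference was 0.56 ± 0.29 (95% interval -0.042 to 1.17, unadjusted p = 0.0662, adjusted p = 0.353). Without DEX day 30 replicate 3 it was 0.99 and passed (adjusted p = 0.0222), and 3023 probe sets of the whole array passed in that fit. Rod markers averaged 0.094, 0.10 and -0.016 in DEX retinas and -0.036, -0.29 and 0.016 in TAA retinas, with 8 of 8 probe sets above 0 (median 0.15, 3 at an unadjusted p under 0.05). Lens markers averaged -1.72, -0.044 and 0.65 in DEX retinas and 0.13, 0.22 and 3.48 in TAA retinas, with 7 of 8 below 0 (median -1.57). The part of these markers was not tested. In this comparison 0% of all probe sets were called and 15.8% had an unadjusted p under 0.05, as did 2 of the 6 members.

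At day 7 no difference between a drug and BSS passed in any of the 4 genes. Against BSS, DEX gave differences from -0.13 in Aqp1 to 0.22 in Aqp4 probe set A, with intervals of -0.73 to 0.48 and -0.17 to 0.62. Against BSS, TAA gave differences above 0 in 6 of 6 probe sets, from 0.078 in Kcnj10 to 0.40 in Aqp4 probe set B, with adjusted p = 1.0 for the highest. In DEX against BSS 0 members had an unadjusted p under 0.05 (3.38% of all probe sets) or groups apart (13.8%). In TAA against BSS 0 members did either (3.75% and 9.91%). In TAA against BSS, 1 probe set of the whole array was called (0.00222%), and in DEX against BSS 0%.

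The sign of the TAA difference at day 7 turned in 4 of the 6 probe sets when 1 retina was left out. Without TAA day 7 replicate 2, TAA minus BSS was -0.049 for Aqp4 probe set B, -0.016 for Aqp4 probe set C, -0.10 for Aqp1 and -0.14 for Kcnj10, while it was 0.021 for Aqp4 probe set A and 0.13 for Kcnj2. That array was above 0 in 6 of 6 members and the highest of all in 3. Its mean over the Müller glia markers was 0.54, against -0.17 to 0.18 on the other 17 arrays, and over 9 measured of 10 reactive glia markers 1.34, against -0.48 to 0.55. These marker means were high on the same array, and their part in the result was not tested. DEX minus TAA at day 7 ran from -0.36 in Aqp1 to 0.061 in Kcnj10, and 0 members had groups apart, against 12.2% of all probe sets. An unadjusted p under 0.05 was found in 0 members and 6.1% of all probe sets.

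In BSS retinas, Aqp4 stood higher at day 30 than at day 7 by every probe set, without passing the test. All 3 Aqp4 probe sets were higher at day 30 than at day 7 with no overlap, as were 10.6% of all probe sets (21.1% were apart in either direction). By probe set A the means were 0.26 ± 0.080 at day 30 and -0.27 ± 0.18 at day 7, a difference of 0.54 ± 0.19 (95% interval 0.14 to 0.94, unadjusted p = 0.0112, adjusted p = 0.585). The differences were 0.29 ± 0.27 by probe set B and 0.20 ± 0.20 by probe set C, and 0.34 ± 0.18 for their mean (adjusted p = 0.681). At an unadjusted p under 0.05 stood 1 of 6 members and 7.36% of all probe sets. None of the members passed, while 6 probe sets of the array did (0.0133%), all 6 lower at day 30. Markers of the neighbouring lens averaged 1.73, -0.13 and 2.22 in BSS day 30 retinas and 0.21, -0.40 and -0.0020 in BSS day 7 retinas, and their part was not tested.

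In DEX retinas, both water channels stood higher at day 30 than at day 7, Aqp4 by probe set B, and neither passed the test. Aqp4 probe set B averaged 0.64 ± 0.34 at day 30 and -0.19 ± 0.14 at day 7, a difference of 0.83 ± 0.27 (95% interval 0.27 to 1.39, unadjusted p = 0.00620, adjusted p = 0.106). Aqp1 averaged 0.73 ± 0.74 at day 30 and -0.15 ± 0.13 at day 7, a difference of 0.88 ± 0.29 (95% interval 0.28 to 1.49, unadjusted p = 0.00685, adjusted p = 0.112). This was the comparison with the most calls on the array, 863 probe sets or 1.92%, of which 290 were higher at day 30 (0.644%) and 573 lower (1.27%). Aqp4 probe sets B and C had groups apart, with day 30 higher, as in 9.15% of all probe sets (24% in either direction). At an unadjusted p under 0.05 stood 18.3% of all probe sets and 2 of the 6 members.

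Averaged over its 3 probe sets, Aqp4 gave 0.32 ± 0.18 in DEX day 30 minus day 7 (adjusted p = 0.338 over 18193 genes). Müller glia markers averaged -0.056, 0.020 and -0.13 at day 30 and 0.18, 0.14 and 0.13 at day 7, with no overlap, and 14 of 19 probe sets were below 0 (median -0.26). Rod markers were above 0 in 7 of 8 probe sets (median 0.099) and pigment epithelium markers in 14 of 16 (median 0.31). The part of these markers was not tested.

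Whether the DEX time differences passed depended on single arrays. Without DEX day 30 replicate 3 both passed, at 1.02 for Aqp4 probe set B (adjusted p = 0.0448) and 1.31 for Aqp1 (adjusted p = 0.00721). In that fit 2874 probe sets of the whole array passed. Without DEX day 30 replicate 1 Aqp1 gave 0.63 (adjusted p = 0.360). The 2 widest arrays of the study are both TAA arrays, so leaving them out could not change these estimates (0.83 and 0.88). Only the standard errors changed, to 0.15 for Aqp4 probe set B and 0.25 for Aqp1. Both differences then passed, with adjusted p = 0.00938 and 0.0418. These 2 arrays were chosen after the data were seen, and without them 3120 probe sets of the whole array passed. For Aqp4 probe set A the same comparison gave 0.015 ± 0.19, for Kcnj10 -0.12 ± 0.17 and for Kcnj2 0.14 ± 0.12. In TAA retinas, day 30 minus day 7 was 0.42 ± 0.20 for Aqp4 probe set C (unadjusted p = 0.0534) and -0.32 ± 0.17 for Kcnj10 (unadjusted p = 0.0842), and both moved with the widest arrays. No member had groups apart or an unadjusted p under 0.05 there, against 12.8% and 11.9% of all probe sets, with 0% called.

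The change of the DEX effect between the days, DEX minus BSS at day 30 less that at day 7, was tested directly. It was 0.68 ± 0.41 (95% interval -0.18 to 1.54, unadjusted p = 0.113, adjusted p = 0.680) for Aqp1, 0.54 ± 0.38 (95% interval -0.25 to 1.33, unadjusted p = 0.170, adjusted p = 0.727) for Aqp4 probe set B and -0.52 ± 0.27 (95% interval -1.09 to 0.042, unadjusted p = 0.0677, adjusted p = 0.629) for Aqp4 probe set A. None passed or had an unadjusted p under 0.05, against 0% and 8.16% of all probe sets. Kcnj10 and Kcnj2 gave 0.068 ± 0.25 and -0.061 ± 0.17. For TAA the same change ran from -0.51 in Aqp4 probe set B to 0.22 in Aqp4 probe set C, with 0 members at an unadjusted p under 0.05 (5.63% of all probe sets) and 0% of all probe sets called.

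**Figure D2:**
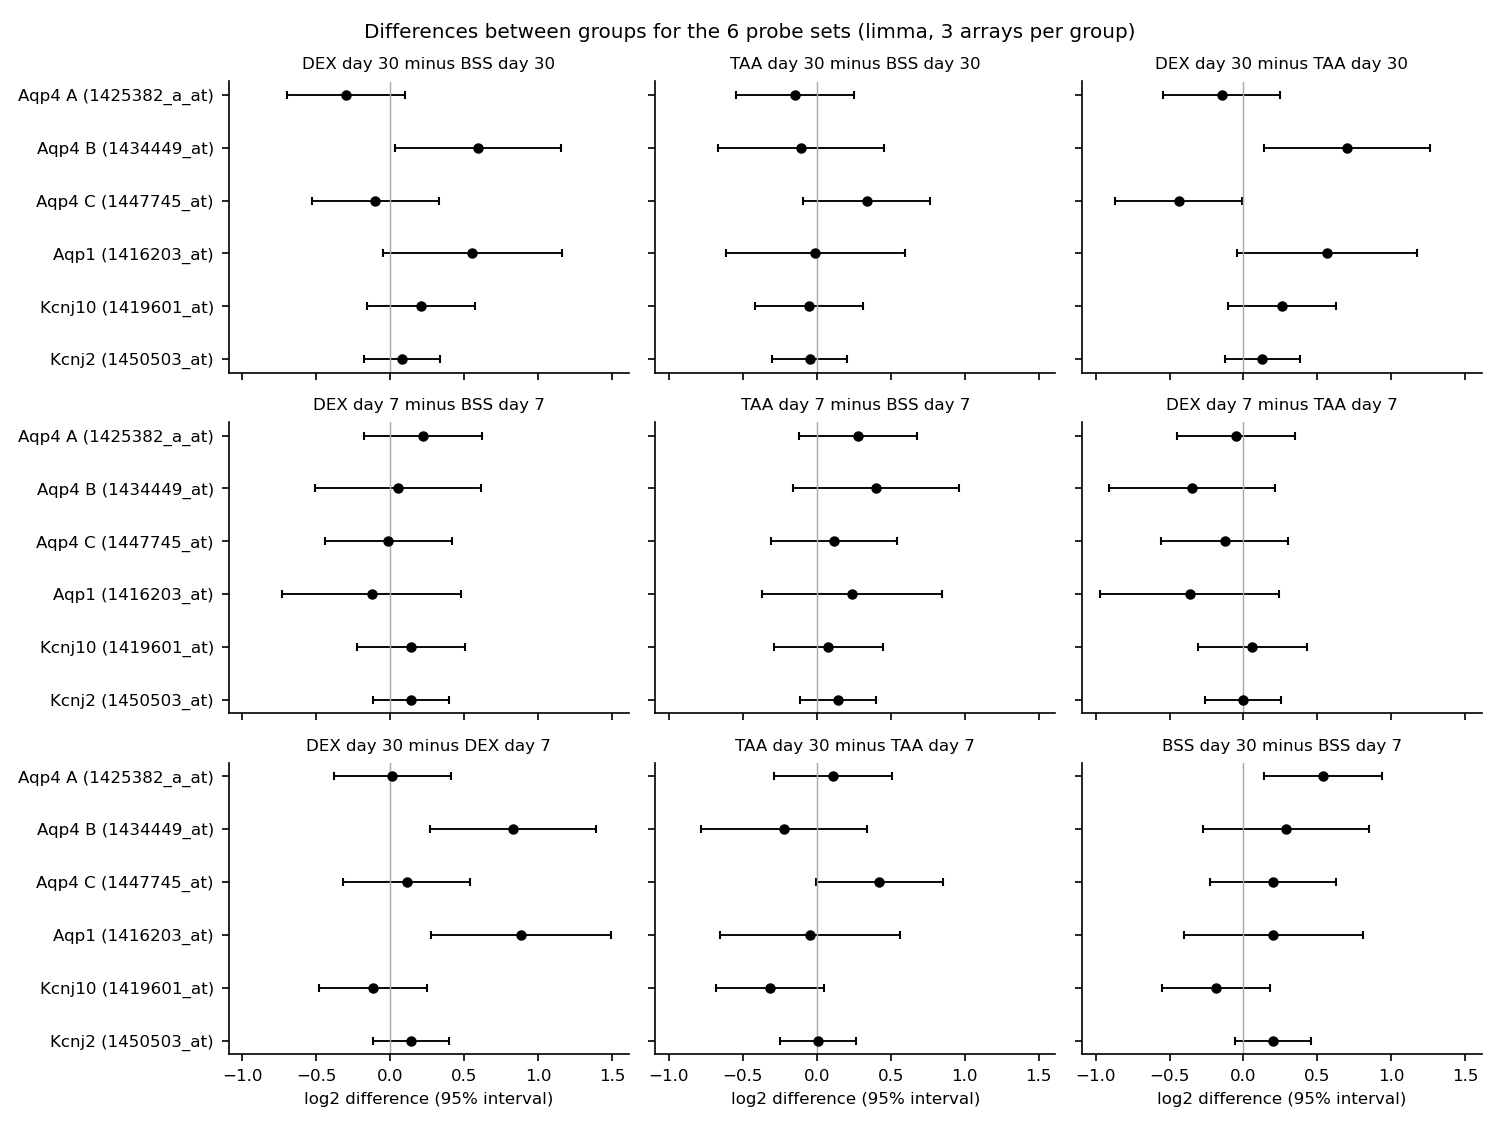
Log2 difference (horizontal axis) with its 95% interval for the 6 probe sets in 9 comparisons, first-named group minus second. Intervals of Aqp4 probe set B lie above 0 in 3 comparisons with DEX day 30 on top (0.83, 0.70 and 0.59), and no adjusted p is under 0.05.

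Likeness across arrays depended on the measure. By Pearson's r, Aqp4 probe set B was closer to Aqp1 than to the other Aqp4 probe sets, and by Spearman's rho it was closest to probe set C. Over the 18 arrays Pearson's r was 0.83 with Aqp1 (Spearman's rho 0.55), 0.49 with probe set A (rho 0.48) and 0.068 with probe set C (rho 0.59). On 3 arrays both were high, DEX day 30 replicates 1 and 2 and TAA day 7 replicate 2. Without the 2 widest arrays r was 0.84 with Aqp1, 0.43 with probe set A and 0.44 with probe set C. The 2 channels thought to work together at the endfeet, Aqp4 and Kcnj10, gave r = 0.54 by probe set B (0.24 without those arrays), 0.052 by probe set A and -0.42 by probe set C. These are descriptions of arrays that share groups and normalization.

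**Figure D3:**
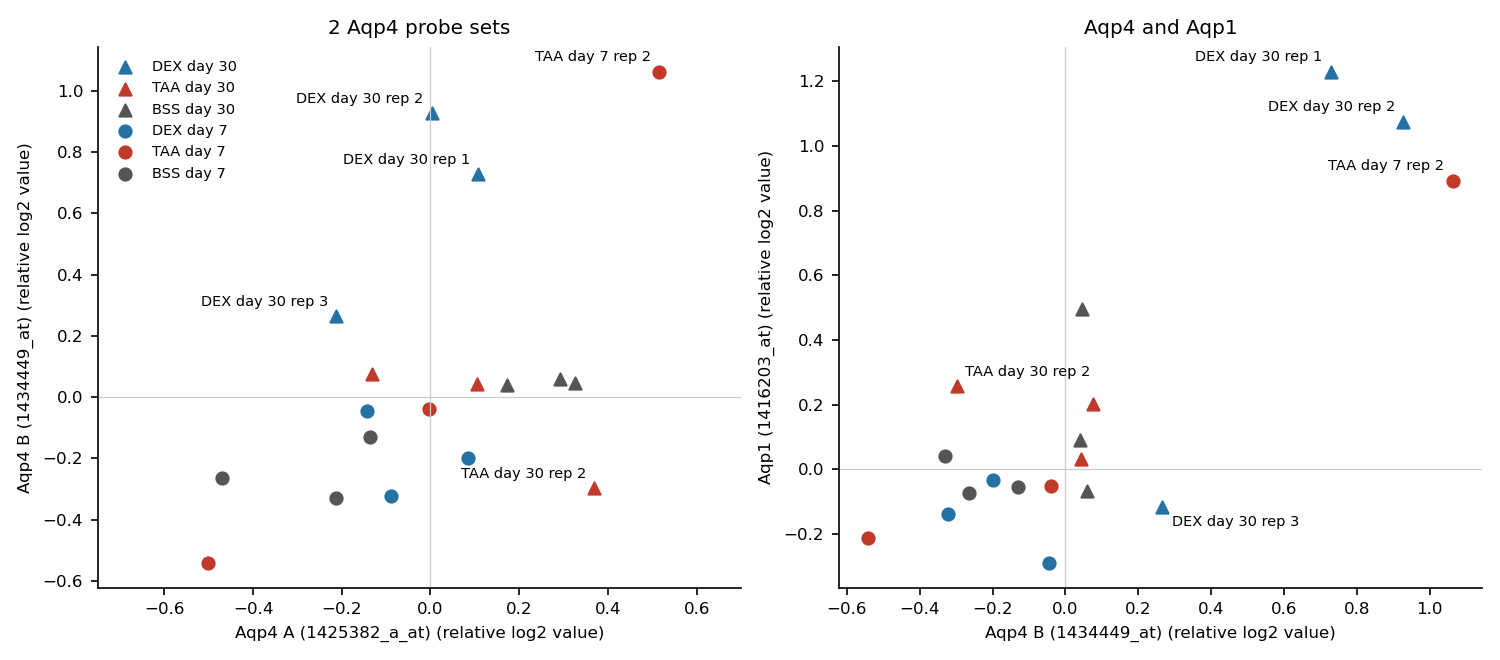
Relative log2 values on each of the 18 arrays, for Aqp4 probe set B against Aqp4 probe set A on the left and for Aqp1 against Aqp4 probe set B on the right. DEX day 30 arrays lie 0.48 to 0.92 higher by probe set B than by probe set A, and 3 arrays stand at the top right in Aqp4 and Aqp1.

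Arrays were also counted by how many of the 6 probe sets lay above 0. DEX day 30 replicate 2 and TAA day 7 replicate 2 were above 0 in 6 of 6 probe sets, and DEX day 30 replicate 1 in 5. TAA day 7 replicate 1 and BSS day 7 replicate 3 were above 0 in 0 of 6. Of the 9 arrays of day 7, 8 were above 0 in at most 2 probe sets, while the 9 arrays of day 30 were above 0 in 3 to 6. Aqp4 holds 3 of the 6 probe sets, so these counts partly repeat 1 gene. Day 30 minus day 7 was above 0 in 5 of 6 probe sets in BSS, 5 in DEX and 3 in TAA retinas. Kcnj10 was below 0 in each (-0.19, -0.12 and -0.32). The count was not made over all probe sets.

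**Figure D4:**
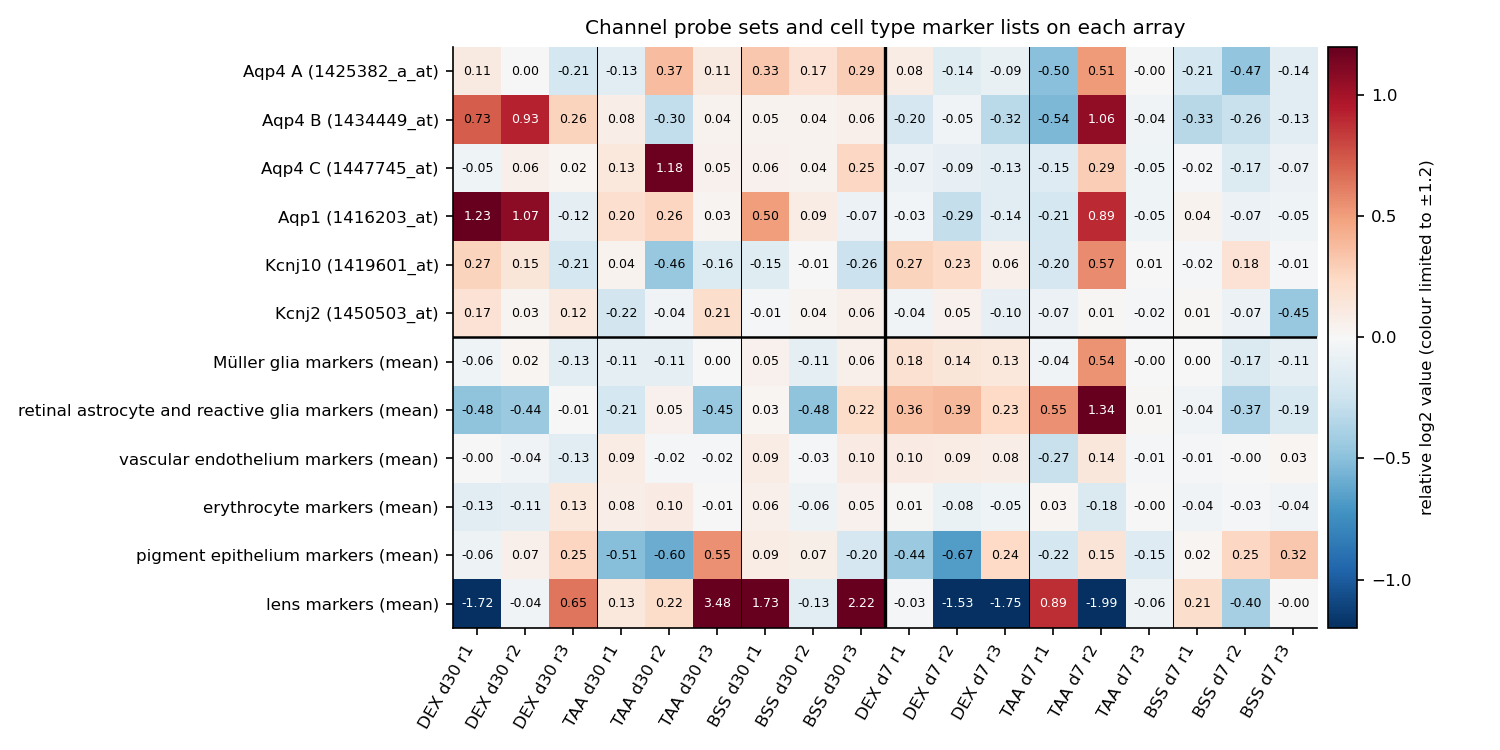
Relative log2 value of the 6 probe sets and mean of 6 marker lists (rows) on each of the 18 arrays (columns, by group), with the value written in each cell and the colour limited to ±1.2. Values above 0.5 in more than 1 gene occur on DEX day 30 replicates 1 and 2 and TAA day 7 replicate 2.

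The genes whose pattern was most like each member were taken by Pearson's r over the 18 arrays among 16314 named genes, using the member's probe set with the widest interquartile range. For Aqp4 probe set B they were Sox2 (0.92), Dmtf1 (0.92), Klhl7 (0.92), Qars (0.92) and Eif5 (0.90). Sox2 is a transcription factor kept by Müller glia in the mature retina and Qars joins glutamine to its transfer RNA. For Aqp1 they were Pex10 (0.93), Syne3 (0.92), Prmt1 (0.92), Agpat3 (0.92) and Cdc123 (0.92), and their Spearman's rho, which weighs single high arrays less, was 0.57 to 0.79. Pex10 serves peroxisome assembly and Prmt1 methylates arginine in proteins.

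For Kcnj10 they were Nfib (0.93), Rasa3 (0.92), Arhgap20 (0.92), Rgs17 (0.91) and Epha5 (0.91), with rho from 0.79 to 0.89. Nfib, a transcription factor of late retinal progenitors and glia, kept r = 0.85 without the 2 widest arrays. For Kcnj2 they were Tfap2a (0.73), Clec5a (0.73), Trpc4 (0.69), Fanci (0.69) and Sox1 (0.67), lower than for the other 3 genes. Tfap2a is a transcription factor of amacrine cells, and Trpc4 a cation channel. No test applies to genes picked for likeness.

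Other aquaporins and potassium channels were counted from fixed lists. Of 21 probe sets of 10 other aquaporins, 0 were called in any of the 11 comparisons, and the DEX minus BSS difference at day 30 was below 0 in 18 of 21 (median -0.069), against 54.8% of all probe sets (median -0.022). In BSS day 30 against BSS day 7, 18 of 21 were above 0 (median 0.078), against 52.8% of all (median 0.011). The list holds the lens channel Mip, and the lens marker values of both comparisons are given above. Aqp3, a channel for water and glycerol, had the smallest p of the list over the 6 drug comparisons and gave -0.44 ± 0.14 by 1 probe set (adjusted p = 0.374) and -0.29 ± 0.13 by another (adjusted p = 0.422) for DEX minus BSS at day 30. Its arrays by the first were -0.33, -0.57 and -0.15 in DEX retinas and 0.037, 0.0018 and 0.24 in BSS retinas. The DEX and BSS arrays did not overlap, as in 8.6% of all probe sets with DEX lower (13.9% in either direction). Aqp3 was named for its small p and did not pass. By its remaining probe sets, DEX minus BSS at day 30 was smaller, at -0.12 ± 0.15 (adjusted p = 0.782) and -0.028 ± 0.11 (adjusted p = 0.943).

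Of 29 probe sets of 13 other inward rectifiers, 0 were called, and 23 of 29 were above 0 in BSS day 30 minus BSS day 7 (median 0.088). Kcnj13, which encodes Kir7.1 of the pigment epithelium, gave -0.997 ± 0.21 for TAA minus BSS at day 7 (adjusted p = 0.634). Its arrays were -0.92, -0.81 and -0.59 in TAA retinas and 0.13, 0.24 and 0.30 in BSS retinas. The groups did not overlap, as in 9.91% of all probe sets in either direction, and Kcnj13 was named for its small p. Pigment epithelium markers (10 of 10 genes measured) averaged -0.22, 0.15 and -0.15 on the TAA arrays and 0.020, 0.25 and 0.32 on the BSS arrays, and their part was not tested. Kcnj9, a G protein gated channel subunit, gave 0.72 ± 0.26 for DEX minus BSS at day 7 (adjusted p = 1.0).

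The dystrophin complex, which anchors aquaporin-4 and Kir4.1 at the endfeet, had few probe sets called. Of its 37 probe sets of 11 measured genes (of 13), 1 was called in DEX day 30 against DEX day 7, where 1.92% of all probe sets were, and 0 in the other 10 comparisons. Dag1 encodes dystroglycan, the laminin receptor at the core of the complex, and by 1 of its 4 probe sets it fell to -0.32, -0.32 and -0.15 in DEX day 30 retinas, against 0.36, 0.089 and 0.20 in DEX day 7 retinas. The difference was -0.48 ± 0.11 (adjusted p = 0.0423), and by a second it was -0.42 ± 0.13 (adjusted p = 0.0956). The other 2 gave -0.24 (adjusted p = 0.280) and -0.043 (adjusted p = 0.897). The call held in 6 of 14 alternative fits. It held without DEX day 30 replicate 3 and was lost when any of the other 5 arrays was left out, with adjusted p up to 0.222 without DEX day 7 replicate 1. Over the list the median was -0.066 in this comparison, and over all probe sets 0.0041.

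Other transport genes held no call. Of 16 probe sets of 10 measured tandem-pore (K2P) potassium channels, 0 passed, with Kcnk13 at -0.39 ± 0.098 for DEX minus TAA at day 7 (adjusted p = 0.556) and Kcnk1 at 0.58 ± 0.15 for TAA minus BSS at day 7 (adjusted p = 0.987). Of 22 probe sets of 9 measured genes of the sodium pump and cell volume, 0 passed. Its beta subunits gave 0.47 ± 0.14 for Atp1b1 in DEX minus BSS at day 7 (adjusted p = 1.0) and 0.43 ± 0.13 for Atp1b2 in DEX minus TAA at day 7 (adjusted p = 0.695). In that last comparison 16 of the 22 were above 0 (median 0.18), against 50.8% of all probe sets (median 0.0027).

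Genes listed as glucocorticoid targets were counted in the same way. The list, Folh1 included, was chosen with earlier results of these data known and is therefore no independent check of the drugs. Of 21 probe sets of 11 genes, 17 were above 0 in TAA minus BSS at day 7 (median 0.38), against 47.7% of all probe sets, and Folh1, a peptidase that releases glutamate and the 1 probe set of the whole array called there, was called at 1.87 ± 0.26 (adjusted p = 0.0456). That call held in 6 of 15 alternative fits and, of the 6 that left out 1 array, in the one without TAA day 7 replicate 3. The medians for DEX minus BSS were 0.057 at day 7 and 0.048 at day 30, with 0 called. The 4 channel genes gave 6 of 6 probe sets above 0 with a median of 0.19 in that TAA comparison, of which 4 turned below 0 without TAA day 7 replicate 2.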

How the data were processed

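Retina RNA from 18 samples was hybridised to 18 Affymetrix mouse arrays after two-cycle biotin labelling, per the labels' protocols. The authors processed the arrays with RMA, per the submitters' processing notes, which give no version. Values as deposited were read as log2, from RMA's convention; they are centred on the median of each probe set (within 1e-06 in 45101 of 45101), so they hold no level or signal over background. Probe sets were named from the platform annotation, and 34945 name 1 gene.

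All 45037 probe sets other than controls were fitted with limma 3.58.1 in R 4.3.3 (1 coefficient per group, 12 residual degrees of freedom), with Benjamini-Hochberg adjustment over the table and no filter. The fit was tested on simulated data. Called means adjusted p under 0.05. From each list, called probe sets or the 2 of smallest p over the 6 drug comparisons were named, and the 5 genes most like each member. Members and lists were chosen with earlier results of these data known. Promoter sequences are from RefSeq, GRCm38.p6. The files name no build, so coordinates are given only for these windows, from RefSeq. Listed genes with no probe set of their own were not analysed here. Alternatives were other probe set filters, array weights, robust moderation, array centring, quantile normalization, a replicate block and each array left out.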

Additional observations from a re-analysis of the deposited data

Results flagged for a closer look

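Aqp4 by probe set A stood out because the DEX arrays lay on opposite sides of the BSS mean on the 2 days. At day 30 the 3 DEX arrays minus the BSS mean ran from -0.48 to -0.16 (mean -0.30), and at day 7 from 0.13 to 0.36 (mean 0.22). The effect at day 30 less that at day 7 was -0.52, and its own test, limma's interaction, missed the threshold (unadjusted p = 0.0677, adjusted p = 0.629). At day 30 the mean was -0.034 in DEX retinas and 0.26 in BSS retinas, and at day 7 -0.049 in DEX retinas and -0.27 in BSS retinas. The other 2 Aqp4 probe sets showed no such reversal, even of the mean. DEX minus BSS was 0.052 at day 7 and 0.59 at day 30 by probe set B. By probe set C it was -0.012 at day 7 and -0.10 at day 30. The cause was not tested.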

How the results depend on the processing

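Of 66 member differences, 0 passed in the fit reported, and 14 of 1051 alternative values passed. Signs changed in 70 of those values, in 31 of the differences, of which 9 belonged to differences above 1 standard error. Without the 2 widest arrays (TAA day 7 replicate 2 and TAA day 30 replicate 2; chosen after seeing the data), TAA minus BSS turned to -0.049 for Aqp4 probe set B at day 7 and -0.025 for Aqp4 probe set C at day 30, DEX minus TAA at day 7 to 0.10 for Aqp4 probe set B, TAA day 30 minus day 7 to 0.035 for Kcnj10, and the change of the TAA effect to 0.059 for Aqp4 probe set B. With 1 array left out at a time the ranges were -0.049 to 0.75 for Aqp4 probe set B in TAA minus BSS at day 7, -0.70 to 0.10 for it in DEX minus TAA at day 7, -0.025 to 0.54 for Aqp4 probe set C in TAA minus BSS at day 30, and -0.00018 to 0.23 for Kcnj2 in DEX minus BSS at day 7. Member probe sets called, 0 as reported, ranged with 1 array left out from 0 to 1 in DEX minus BSS and in DEX minus TAA at day 30 and from 0 to 2 in DEX day 30 minus day 7, which also gave 2 without the 2 widest arrays. Array quality weights called 2 in each of these 3 comparisons, 1 in BSS day 30 minus day 7 (Aqp4 probe set A, adjusted p = 0.0384) and 1 for the change of the DEX effect (Aqp1, 1.004, adjusted p = 0.0311). These weights come from how closely each array follows its group and hold no independent measure of quality. Whole-array counts moved far more than 1.5 times. DEX day 30 minus day 7 had 863 calls as reported, 7674 with weights, 2 to 2874 with 1 array left out (the highest without DEX day 30 replicate 3) and 1 to 3120 under other settings (the highest without the 2 widest arrays). BSS day 30 minus day 7 had 6, 511 with weights, 0 to 5 with 1 array left out and 3 to 83 under other settings (the highest with quantile normalization). TAA minus BSS at day 7 had 1, 101 with weights and 0 to 22. Without DEX day 30 replicate 3, DEX minus BSS at day 30 had 2009 and DEX minus TAA at day 30 had 3023, both 0 as reported, and without the 2 widest arrays DEX minus BSS at day 30 had 26. Without TAA day 7 replicate 3, TAA day 30 minus day 7 had 33. At 0 as reported, weights gave 4823 for DEX minus BSS and 3959 for DEX minus TAA at day 30, 860 for DEX minus TAA and 10 for DEX minus BSS at day 7, 81 for TAA between the days, and 2773 and 17 for the changes of the DEX and TAA effects. The cause was not tested.

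The replicate numbers were not taken to pair the samples, since the labels state no link. Deviations of arrays with the same number had a median r of 0.052 over 45 pairs (-0.22 to 0.48, 17 over 0.1), and of arrays with different numbers -0.017 over 90 (17 over 0.1), a smaller share. Whether arrays with the same number shared a batch was not tested. With a replicate block 0 member probe sets were called in each of the 11 comparisons, and on the whole array it called 0 in TAA minus BSS at day 7, 1 in TAA minus BSS at day 30, 3 in DEX minus TAA at day 30 and 8 in TAA day 30 minus day 7.

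Centred values give no signal over background, so dim probe sets could not be told from bright ones. With 3 arrays a group, intervals of the member differences were wide (-0.62 to 0.60 for Aqp1 in TAA minus BSS at day 30, a difference of -0.0092), and effects inside them were not detectable.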

Other observations

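Markers of reactive glia were read in DEX day 30 against DEX day 7. Gfap was chosen after its values were seen. Gfap, the intermediate filament of reactive glia, fell in DEX day 30 retinas against DEX day 7 retinas by 1 of its 3 probe sets, with a difference of -1.79 ± 0.40 (limma, adjusted p = 0.0353), a call that held in 9 of 15 alternative fits and that 5 of the 6 fits without 1 array lost (adjusted p up to 0.182; it held without DEX day 30 replicate 3). The other 2 probe sets gave -1.15 (adjusted p = 0.0670) and -0.46 (adjusted p = 0.158). By the called probe set the arrays were -1.32, -1.59 and -0.93 in DEX day 30 retinas and 0.77, 0.41 and 0.35 in DEX day 7 retinas. The mean of all reactive glia markers was -0.48, -0.44 and -0.0093 at day 30 and 0.36, 0.39 and 0.23 at day 7. DEX day 30 replicates 1 and 2, where Aqp1 and Aqp4 probe set B were high, thus had low marker means, while in TAA day 7 replicate 2 both the channels and the markers were high. Marker means were similarly low on BSS day 30 replicate 2 (-0.48) and TAA day 30 replicate 3 (-0.45). On those arrays Aqp1 was 0.090 and 0.033, and Aqp4 probe set B was 0.039 and 0.042. The relation between these markers and the channels was not tested.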
